A study of Bos taurus with 30 samples.

Results

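The genes described here are 10 genes known for pluripotency, read in the day 15 bovine embryo: POU5F1, NANOG, PRDM14, SALL4, LIN28A, LIN28B, ZFP42, ESRRB, KLF4 and VRTN. They were chosen by name, by matching Entrez gene IDs to cattle symbols, and 10 of 10 were found among the 35092 genes of the count table. The study asked how in vitro production (IVP) changes the elongating conceptus, with in vivo produced (IVV) embryos as the reference. Poly(A) RNA was sequenced from the embryonic disc (ED), the piece that holds the epiblast and forms the body, in 7 IVP and 9 IVV embryos, and from the extra-embryonic membranes (EEM), the surrounding sheet of trophoblast and hypoblast, in 6 IVP and 8 IVV embryos. For 13 embryos, 5 IVP and 8 IVV, there was a library of each tissue. Libraries held between 48713218 and 63037371 counts.

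IVP embryos came from slaughterhouse oocytes that were matured, fertilized with semen of a Holstein bull and grown in serum-free medium, and were placed in recipient cows at day 7 and flushed at day 15. IVV embryos came from Holstein cows that were superovulated and artificially inseminated, and were flushed at day 15. A pair of recipient cows and a pair of donor cows provided the embryos, so procedure, cow and hormone treatment cannot be told apart. Embryos in which no disc was seen were discarded, so all discs are from embryos that had formed one. The study recorded embryo length, morphology and sex, which the labels do not give and which were not used here, so a difference in size, developmental progress or sex between the groups cannot be told apart from procedure. Libraries were not strand-specific, so reads of antisense transcripts cannot be told apart from those of the genes themselves.

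Pluripotent cells of the epiblast are held in an undifferentiated state by a network of transcription factors with POU5F1 and NANOG near its center. In the mouse, an earlier naive state that depends on factors such as KLF4, ESRRB and ZFP42 gives way to a formative and primed state before gastrulation, in which POU5F1 is kept and primed genes such as OTX2 rise. In ruminants the disc sits exposed on the surface of an elongating conceptus while this happens, and the primitive streak forms in it at about the stage sampled here.

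The disc label was read beside the 10 members, which were chosen with earlier results of these data known. POU5F1, NANOG, PRDM14, VRTN and LIN28B were higher in each of the 13 discs than in the EEM of the same embryo. SALL4 and LIN28A were higher in the disc in 3 of 5 IVP and 8 of 8 IVV pairs, and ESRRB in 4 of 5 and 7 of 8. ZFP42 was higher in 3 of 5 and 2 of 8, and KLF4 in 1 of 5 and 2 of 8. SOX2, a defining gene of the epiblast, is listed at 0 in all 30 libraries, as are UTF1 and the cell cycle gene CCND1 among the listed genes. Discs were not pure epiblast. The summed level of 12 trophoblast genes was 11776 to 66002 CPM (counts scaled to a common library total) in IVP discs (median 33098) and 27100 to 42590 in IVV discs (median 31001), against 29603 to 67091 in IVP EEM and 31082 to 50936 in IVV EEM. The summed level of 11 hypoblast genes was 2674 to 7934 CPM in IVP discs and 2225 to 4622 in IVV discs, with medians of 3875 and 3635. In such bulk samples, fewer epiblast cells in a disc piece and less RNA per epiblast cell cannot be told apart.

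The 10 genes differed in where they were read. POU5F1, NANOG, PRDM14 and VRTN, called the disc genes from here on, were low or close to 0 in EEM. SALL4, LIN28A, LIN28B and ESRRB were read in both tissues and were called higher in the disc on average and in IVV embryos, but not in IVP embryos alone. ZFP42 and KLF4 were read in both tissues and were not called higher in the disc, so in these data they do not mark the epiblast. Levels are given as CPM scaled with TMM factors, which do not allow for transcript length, so levels of different genes are not ranked against each other.

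**Figure D1:**
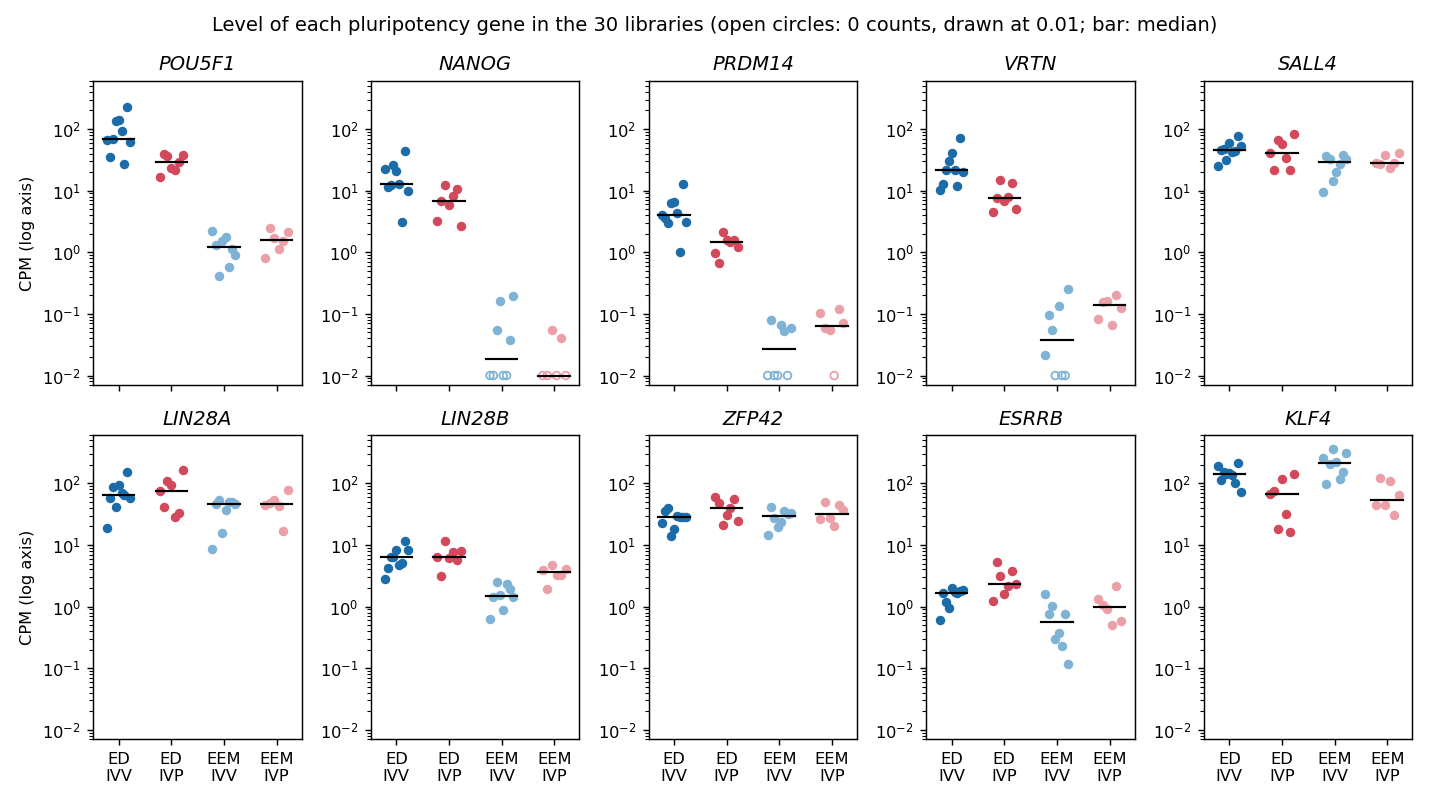
CPM on a log axis for each of the 10 genes, with 1 point per library in the 4 groups (9 ED IVV, 7 ED IVP, 8 EEM IVV, 6 EEM IVP), a bar at the median and open circles for libraries with 0 counts. POU5F1, NANOG, PRDM14 and VRTN sit lower in every EEM library than in any disc, whereas SALL4, LIN28A, ZFP42 and KLF4 overlap between the tissues.

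The difference between tissues was tested within the 13 embryos with edgeR's quasi-likelihood test, with the embryo as a block and Benjamini-Hochberg adjustment over 16784 genes. On average over both procedures, 8 of 10 members were higher in the ED (13.4% of all genes were) and 1 of 10 was lower (8.49% of all genes were). In IVV embryos 8 of 10 were higher (15.5% of all genes) and 0 lower (6.58% of all genes, with 1 member lower at an unadjusted p under 0.05 and 0 lower by DESeq2). In IVP embryos, with fewer pairs, 4 of 10 were higher (4.16% of all genes) and 0 were lower (0.661% of all genes), with KLF4 lower at an unadjusted p of 0.00309 and called lower by DESeq2. NANOG, PRDM14 and VRTN did not pass the count filter in EEM and entered these tests only through the disc, where they are high, so nothing is read from their part of the counts. Without them the members called higher were 5 of 7 on average, 5 of 7 in IVV and 1 of 7 in IVP embryos.

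POU5F1, the POU-domain factor also known as OCT4, was read at 16.4 to 39.6 CPM in IVP discs (median 29.3) and 26.9 to 228 CPM in IVV discs (median 68.7). In EEM it was read at 0.795 to 2.43 CPM in IVP and 0.419 to 2.24 CPM in IVV embryos. No EEM library reached the lowest disc. Within embryos, the disc held 16.3 to 21.8 times the EEM level in the 5 IVP pairs (median 19.5) and 23.9 to 249 times in the 8 IVV pairs (median 82.4). The difference of these folds between procedures did not pass edgeR's test of the interaction, given below (adjusted p = 0.0656). The fitted log2 difference was 4.24 (SE 0.41, adjusted p = 2.38e-06) in IVP and 6.16 (SE 0.36, adjusted p = 7.34e-10) in IVV embryos.

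NANOG, the homeobox partner of POU5F1, was almost confined to the disc. It was read at 2.71 to 12.5 CPM in IVP discs (median 6.86) and 3.10 to 44.0 CPM in IVV discs (median 12.8). In EEM it had 0 counts in 3 of 5 paired IVP libraries and 4 of 8 paired IVV libraries, and at most 10 counts in any. Summed over the paired embryos, 2242 disc counts stood against 5 EEM counts in IVP, the latter in 2 of 5 libraries (IVP14 and IVPF14). In IVV they were 9242 against 22 (a 362-fold ratio, 95% interval 239 to 578). These exact binomial intervals cover counting error only, and would be wider if the mates of a read pair had been counted singly.

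PRDM14, a PR-domain factor of pluripotent and germ cells, was read at few counts in EEM as well. It was read at 0.679 to 2.12 CPM in IVP discs (median 1.49) and 1.00 to 12.9 CPM in IVV discs (median 3.95), and at no more than 6 counts in any EEM library. The summed counts were 375 in disc and 17 in EEM for IVP (20.9-fold, 12.9 to 36.2) and 2532 and 14 for IVV (156-fold, 92.7 to 285). PRDM14 passed the count filter through its disc counts, so no test is given for it here.

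VRTN, the DNA-binding protein vertnin known for its variants with the number of vertebrae in the pig, was likewise close to 0 in EEM. It was read at 4.56 to 15.0 CPM in IVP discs (median 7.67) and 10.4 to 72.6 CPM in IVV discs (median 21.5). EEM libraries of the pairs held 3 to 10 counts in IVP and 0 to 13 in IVV embryos. The summed counts gave a 73.3-fold ratio in IVP (2633 against 34, 52.3 to 106) and a 410-fold ratio in IVV (13802 against 29, 285 to 613).

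SALL4 and the LIN28 genes were read in both tissues. SALL4, a zinc-finger factor of the inner cell mass and epiblast, was at 46.5 ± 23.5 CPM (SD, n = 7) in IVP discs, 47.3 ± 14.9 (n = 9) in IVV discs, 30.8 ± 6.83 (n = 6) in IVP EEM and 26.3 ± 10.6 (n = 8) in IVV EEM. The ED was higher in IVV embryos by 0.89 on the log2 scale (SE 0.18, adjusted p = 0.000981), while in IVP embryos the difference of 0.21 (95% interval -0.27 to 0.68) did not pass the test. LIN28A, which binds let-7 precursors and blocks their maturation, was at 78.1 ± 49.2 CPM in IVP discs, 71.5 ± 38.0 in IVV discs, 47.0 ± 19.5 in IVP EEM and 38.4 ± 16.9 in IVV EEM. It was higher in the ED of IVV embryos by 0.94 (SE 0.20, adjusted p = 0.00148), a call lost when the block was dropped (adjusted p = 0.106), and in IVP embryos the difference of 0.37 (adjusted p = 0.494) was not called. SALL4 and LIN28A were each higher in the disc in 3 of 5 IVP pairs and 8 of 8 IVV pairs.

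LIN28B, the paralog with a like role in let-7 processing, was also read in both tissues. It was read at 3.15 to 11.5 CPM in IVP discs (median 6.30), 2.84 to 11.6 in IVV discs (median 6.44), 1.90 to 4.73 in IVP EEM (median 3.61) and 0.641 to 2.48 in IVV EEM (median 1.49). In IVV embryos every disc lay above every EEM library. The ED was higher in IVV embryos by 1.97 (SE 0.24, adjusted p = 3.88e-06), and in IVP embryos by 0.92 without passing the test (adjusted p = 0.0733, and 0.0187 with DESeq2).

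ESRRB, an orphan nuclear receptor of the naive network in the mouse, was low in both tissues, at 2.78 ± 1.37 CPM in IVP discs, 1.49 ± 0.476 in IVV discs, 1.10 ± 0.602 in IVP EEM and 0.644 ± 0.496 in IVV EEM. It was higher in the ED of IVV embryos by 1.43 (SE 0.45, adjusted p = 0.0270), but VE19 went the other way (0.605 CPM in ED and 1.60 in EEM). The call was lost when VE3, VE5, VE28 or VE29 was left out, at adjusted p between 0.0614 and 0.0820. In IVP embryos the difference of 1.33 (adjusted p = 0.181) was not called. ZFP42, the zinc-finger gene known as REX1 and a mark of naive stem cells in the mouse, did not differ detectably between tissues. Its log2 difference was -0.06 in IVV (95% interval -0.42 to 0.29) and 0.36 in IVP embryos (-0.09 to 0.81).

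KLF4, a Krüppel-like factor of both naive pluripotency and epithelia, was the single member with a lower level in the ED on average, by -0.65 on the log2 scale (SE 0.16, adjusted p = 0.00624). IVV discs were at 72.4 to 217 CPM (median 143) and IVV EEM at 99.3 to 365 CPM (median 213). IVP discs were at 16 to 140 CPM (median 68.3) and IVP EEM at 30.3 to 122 (median 54.6). The ranges overlapped in both procedures, the difference within each procedure did not pass the test (adjusted p = 0.122 in IVV and 0.0585 in IVP), and the average was no longer called without the block (adjusted p = 0.113) or with only the libraries whose titles end in C (adjusted p = 0.0953). SALL4 and LIN28A were likewise no longer called on average without the block (adjusted p = 0.0884 and 0.165), and SALL4 was also lost with only the libraries whose titles end in C (adjusted p = 0.0531).

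**Figure D2:**
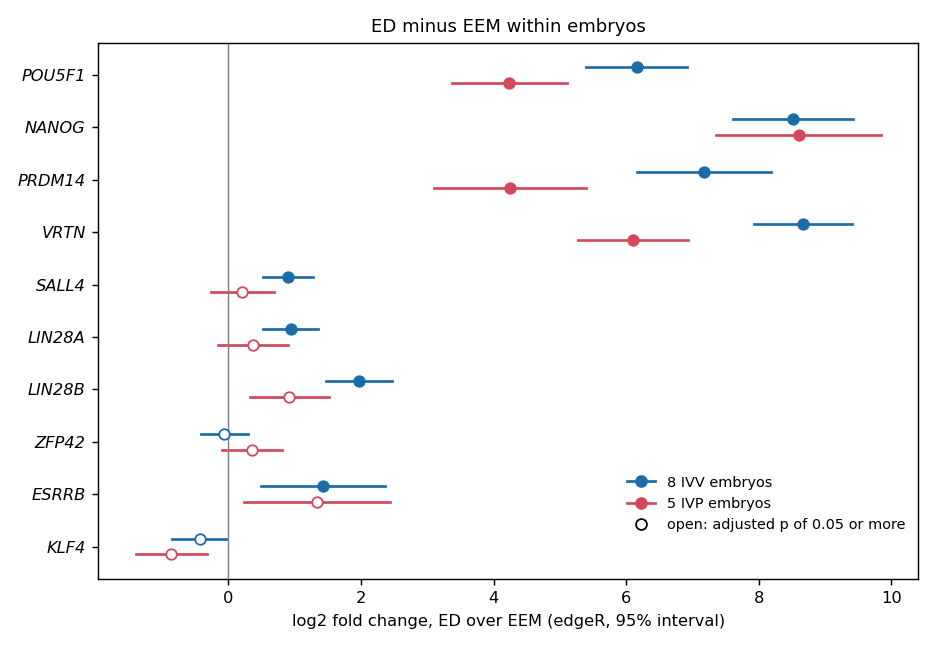
Log2 fold change of ED over EEM within embryos for each gene, from edgeR with embryo as a block, with 95% intervals, in 8 IVV embryos and 5 IVP embryos. Filled points passed an adjusted p of 0.05, open points did not. The 4 disc genes lie above 4 in both procedures. For NANOG, PRDM14 and VRTN the fitted values rest on few EEM counts, and nothing is read from their filled points, since they passed the count filter only through the disc.

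Between procedures, the members were compared within each tissue. In the ED, edgeR with 1 surrogate variable called 3 of 10 members lower in IVP (4.93% of all 15733 genes tested were lower) and 0 higher (1.75% of all genes, with ESRRB higher at an unadjusted p of 0.0268 and 0 members higher by DESeq2). The members that fell were POU5F1, PRDM14 and VRTN, all disc genes. NANOG, the remaining disc gene, was 1.43 lower on the log2 scale and did not pass the test.

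POU5F1 was at 29.2 ± 9.00 CPM (SD, n = 7) in IVP discs and 94.95 ± 63.1 CPM (n = 9) in IVV discs. Of the 9 IVV discs, 7 lay above every IVP disc, while VE4 (26.9 CPM) and VE24 (35.2 CPM) lay within the IVP range. The log2 difference was -1.73 (SE 0.39, adjusted p = 0.0106), a 3.33-fold lower level, and it passed the test with each embryo left out in turn (log2 differences of -1.87 to -1.46). It missed the threshold when only the libraries whose titles end in C were used (-1.68, adjusted p = 0.0736).

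PRDM14 was at 1.38 ± 0.471 CPM in IVP and 4.95 ± 3.41 CPM in IVV discs, with 8 of 9 IVV discs above every IVP disc. VE4 (1.00 CPM) was again the IVV disc within the IVP range. The log2 difference of -1.86 (SE 0.39, adjusted p = 0.00319) passed the test under every alternative run. VRTN was at 8.59 ± 4.05 CPM in IVP and 27.1 ± 19.7 CPM in IVV discs, with 6 of 9 IVV discs above every IVP disc. Its log2 difference of -1.63 (SE 0.41, adjusted p = 0.0212) missed the threshold without IVPF10 (adjusted p = 0.0615) or without VE28 (adjusted p = 0.0989).

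NANOG was at 7.13 ± 3.63 CPM in IVP and 18.1 ± 12.0 CPM in IVV discs, with 5 of 9 IVV discs above every IVP disc. The log2 difference was -1.43 (95% interval -2.37 to -0.49, adjusted p = 0.0642). It passed the test with DESeq2 (adjusted p = 0.0273), without VE4 (0.0103) and without IVP14 (0.0281). VE4 was the lowest IVV disc for POU5F1, NANOG and PRDM14, and VE5 was the highest for these and for VRTN, at 228 CPM of POU5F1, 44.0 of NANOG, 12.9 of PRDM14 and 72.6 of VRTN. IVV discs thus spanned an 8.45-fold range of POU5F1 and a 14.2-fold range of NANOG, against 2.41-fold and 4.63-fold in IVP discs.

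The genes read in both tissues showed smaller differences between procedures in the disc. SALL4 differed by -0.04 (95% interval -0.43 to 0.36), LIN28A by 0.21 (-0.27 to 0.70) and LIN28B by 0.16 (-0.37 to 0.68). These intervals leave out a change as large as that fitted for POU5F1. ZFP42 was at 39.8 ± 15.2 CPM in IVP and 27.1 ± 8.08 in IVV discs (log2 difference 0.47, adjusted p = 0.303). ESRRB was at 2.78 CPM in IVP and 1.49 in IVV discs (0.81, adjusted p = 0.168), with 5 of 7 IVP discs above every IVV disc.

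KLF4 varied most among IVP discs, from 16 CPM in IVPF14 to 140 CPM in IVPF15, with a coefficient of variation of 73.0% against 31.2% in IVV discs. The log2 difference in the disc was -1.13 (adjusted p = 0.117), and without IVPF15 it was -1.38 (adjusted p = 0.0491). IVP14, the highest IVP disc for NANOG, PRDM14 and VRTN, was among the lowest for KLF4 at 18.0 CPM. IVPF15, the lowest IVP disc for NANOG at 2.71 CPM, was the highest for KLF4 and for SALL4 and LIN28A (83.3 and 165 CPM).

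In EEM, 7 members had enough counts to be tested, and NANOG, PRDM14 and VRTN did not pass the filter. LIN28B was the 1 member called higher in IVP (2.15% of all 14718 genes tested were higher) and KLF4 the 1 called lower (1.45% of all genes). LIN28B was at 3.51 ± 0.966 CPM (n = 6) in IVP and 1.58 ± 0.640 CPM (n = 8) in IVV EEM, and 5 of 6 IVP libraries lay above every IVV library. The log2 difference was 1.12 (SE 0.27, adjusted p = 0.0139). It missed the threshold without VE5 (adjusted p = 0.0590) and with only the libraries whose titles end in C (adjusted p = 0.235).

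KLF4 was at 69.4 ± 38.3 CPM in IVP EEM and 217 ± 93.7 CPM in IVV EEM, with 6 of 8 IVV libraries above every IVP library. The log2 difference was -1.61 (SE 0.29, adjusted p = 0.00135), 3.05-fold lower, and it passed the test under every alternative run. POU5F1 was not called in EEM, at 1.61 ± 0.607 CPM in IVP and 1.24 ± 0.614 CPM in IVV embryos (log2 difference 0.55, 95% interval -0.11 to 1.22). VE19 had the lowest IVV level of SALL4, LIN28A and LIN28B in both tissues, with LIN28A at 18.8 CPM in its disc and 8.46 CPM in its EEM.

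**Figure D3:**
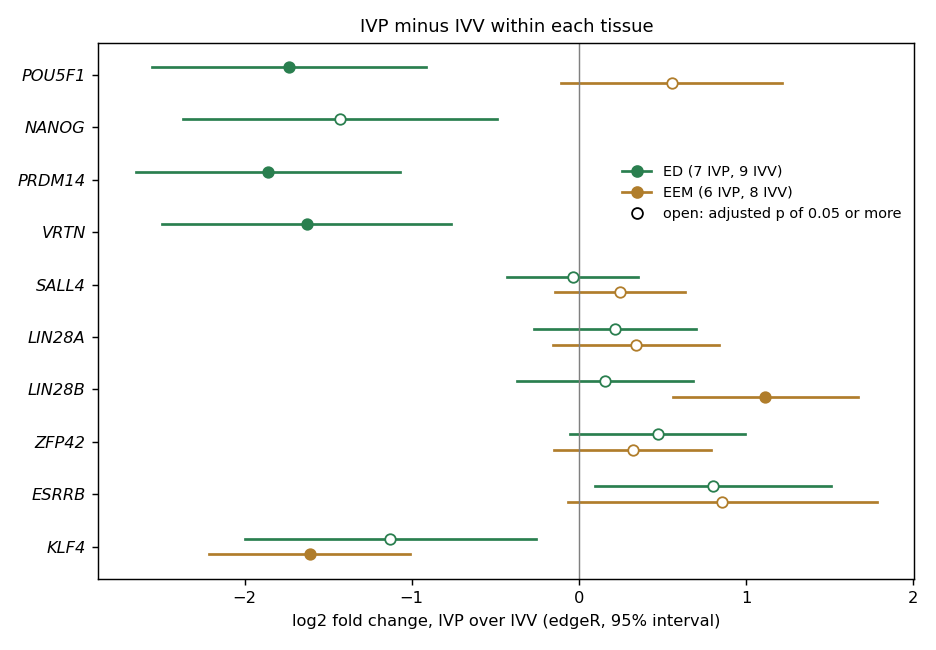
Log2 fold change of IVP over IVV for each gene in the ED (7 IVP, 9 IVV) and the EEM (6 IVP, 8 IVV), from edgeR with 1 surrogate variable, with 95% intervals. Filled points passed an adjusted p of 0.05. POU5F1, PRDM14 and VRTN are filled to the left of 0 in the ED, and in the EEM LIN28B is filled to the right and KLF4 to the left. NANOG, PRDM14 and VRTN were not tested in the EEM.

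Whether the tissue difference itself differed between procedures was tested as an interaction in the 13 paired embryos. One member, VRTN, was called (1.04% of all genes were called in either direction), with a smaller tissue difference in IVP (interaction -2.57 on the log2 scale, SE 0.57, adjusted p = 0.0328). VRTN, PRDM14 and NANOG did not pass the count filter in EEM and entered this test only through their disc counts. Nothing is therefore read from their values or calls here, and none of the other members was called. The EEM side of the VRTN value rests on 34 counts in all in IVP and 29 in IVV, and that of PRDM14 on 17 and 14. The call was lost without IVP10, IVP11, IVP14, IVPF14, VE26, VE28 or VE29 (adjusted p between 0.0501 and 0.0993), without the block (0.288) and with only the libraries whose titles end in C (0.222). POU5F1 (-1.93, adjusted p = 0.0656) did not pass the test but did with DESeq2 (0.00644). PRDM14 (-2.93, adjusted p = 0.0903, and 0.0310 with DESeq2) is not read, for the reason given. NANOG gave 0.09 (95% interval -0.99 to 1.17), where IVP EEM libraries held at most 3 counts. SALL4 (-0.69, adjusted p = 0.376), LIN28A (-0.56, 0.592), LIN28B (-1.05, 0.239), ZFP42 (0.42, 0.684), ESRRB (-0.09, 0.993) and KLF4 (-0.43, 0.757) were not called.

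Ratios within a library do not depend on its scaling, and in each disc the members were set against POU5F1. For the disc genes, no difference of the ratio between procedures was called. NANOG had 7.26 to 37.9 counts per 100 POU5F1 counts in IVP discs (median 24.5) and 11.5 to 34.4 in IVV discs (median 18.0). PRDM14 had medians of 5.76 in IVP and 4.70 in IVV discs, and VRTN of 28.3 and 31.8. The groups overlapped for each of these ratios. The log2 difference of the ratio, IVP minus IVV, was 0.26 for NANOG (95% interval -0.73 to 1.26), -0.13 for PRDM14 (-1.11 to 0.85) and -0.03 for VRTN (-1.03 to 0.97), so that a change of about 2-fold either way lies within the intervals. KLF4, with 0.05 (-0.95 to 1.06), was also not called.

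The other 5 members were higher relative to POU5F1 in IVP discs. By limma across 15732 genes, ESRRB rose by 2.30 (SE 0.50, adjusted p = 0.000166), ZFP42 by 2.00 (0.51, 0.00109), LIN28B by 1.60 (0.50, 0.00456), LIN28A by 1.54 (0.51, 0.00615) and SALL4 by 1.35 (0.51, 0.0134). With POU5F1 itself lower, 79% of all genes were called higher by this measure and 0.744% lower, with a median of 1.46 over all genes, so 5 of 9 members higher is below that background and is not a result about these genes. ESRRB had 6.24 to 13.1 counts per 100 POU5F1 counts in IVP discs and 0.700 to 6.06 in IVV discs. How many of all genes have ranges apart by this measure was not counted, so nothing is read from this gap. SALL4 went from a median of 45.8 in IVV to 181 in IVP discs, with overlap.

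With SALL4 in place of POU5F1 as the denominator, limma called 0 of 9 members, with 270 of 15732 genes called, and 5 members had an unadjusted p under 0.05. POU5F1 was -1.35 relative to SALL4 (95% interval -2.22 to -0.48, adjusted p = 0.119), PRDM14 -1.48 (adjusted p = 0.0842), VRTN -1.38 (0.109), KLF4 -1.30 (0.163) and ESRRB 0.95 (0.435). LIN28A (0.19, 95% interval -0.41 to 0.80) and LIN28B (0.25, -0.39 to 0.89) kept nearer to SALL4.

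**Figure D4:**
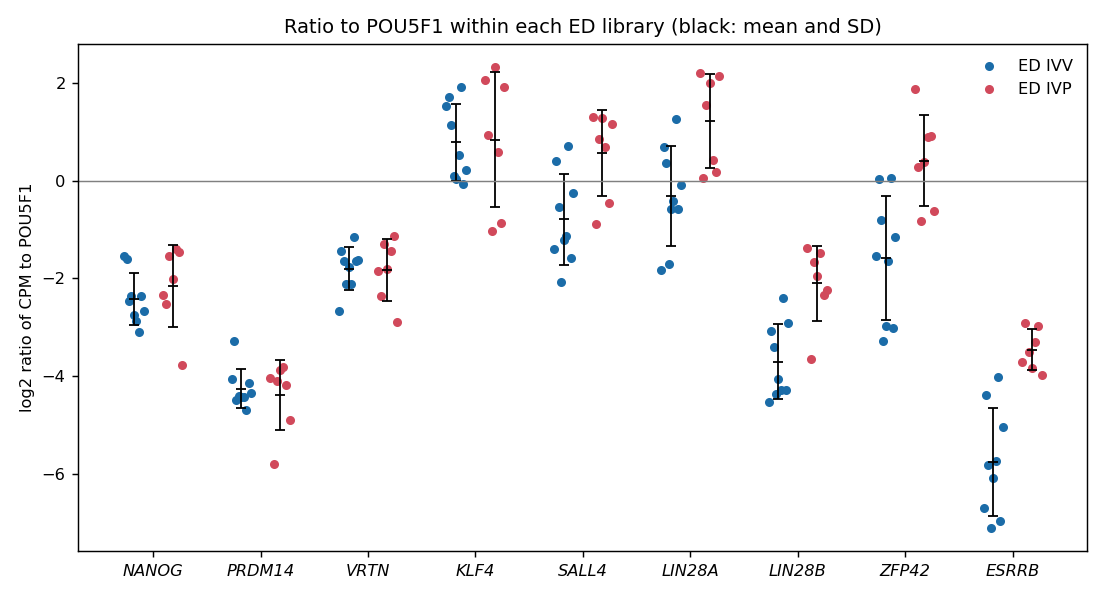
Log2 ratio of each gene's CPM to that of POU5F1 in the same disc library, with 1 point per disc (9 IVV, 7 IVP) and black marks for the mean and SD. NANOG, PRDM14, VRTN and KLF4 overlap between procedures. The ESRRB points of IVP discs all lie above those of IVV discs, on a measure by which 79% of all genes were called higher.

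The spread of the ratios over libraries showed which members kept proportion with each other, given here as a description. In IVV discs the SD of the log2 ratio was smallest for SALL4 to ESRRB (0.29), NANOG to PRDM14 (0.31), SALL4 to LIN28B (0.34) and POU5F1 to PRDM14 (0.41). For comparison, the SD of the log2 level in IVV discs was 0.98 for POU5F1, 1.08 for NANOG and 0.99 for PRDM14. In IVV discs the disc genes thus varied less against each other than each did alone, while the ratios of POU5F1, NANOG and PRDM14 to SALL4 had SDs of 0.93, 1.13 and 0.95. In IVP discs this did not hold for every pair, since the SD of the log2 level was 0.48 for POU5F1, 0.82 for NANOG and 0.53 for PRDM14, and that of the ratio was 0.72 for POU5F1 to PRDM14 and 0.84 for POU5F1 to NANOG. In IVP discs the smallest SDs were for NANOG to VRTN (0.29) and PRDM14 to LIN28B (0.33), NANOG to PRDM14 was at 0.72, and NANOG to KLF4 at 2.00 was the widest pair.

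**Figure D5:**
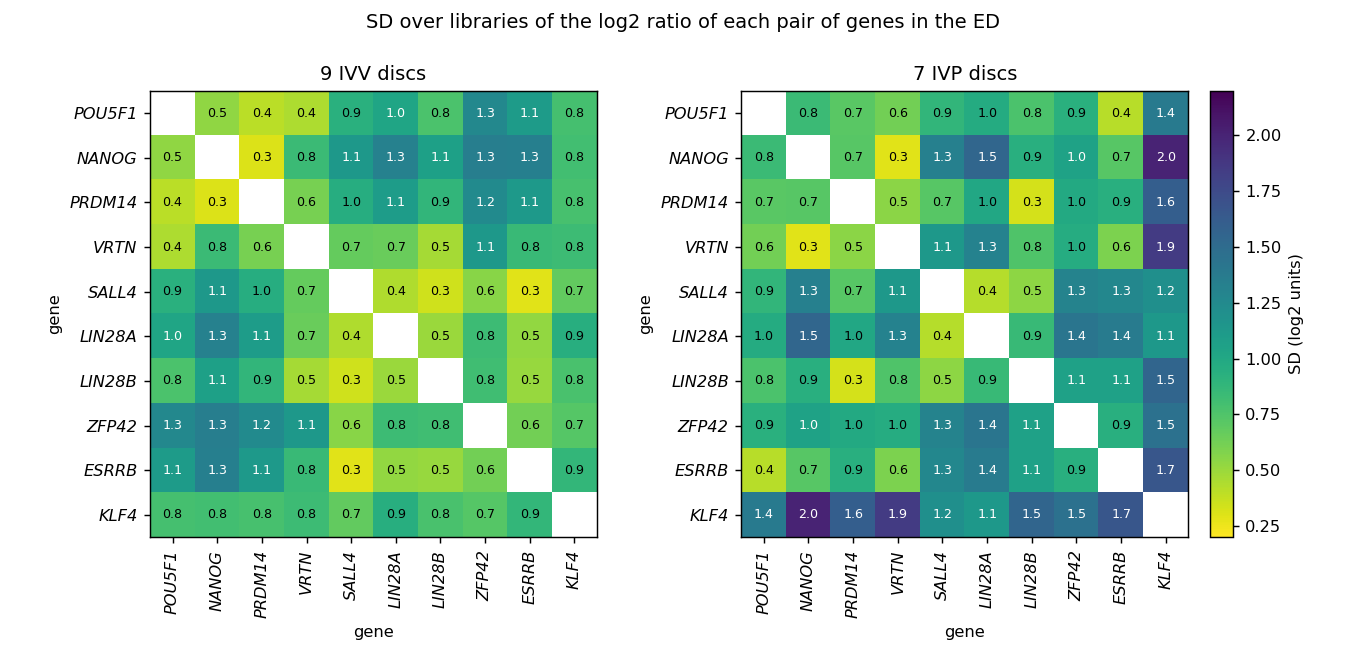
SD over libraries of the log2 ratio of each pair of genes in IVV discs (n = 9) and IVP discs (n = 7), on a color scale in log2 units. In IVV discs the pairs among SALL4, LIN28A, LIN28B and ESRRB lie between 0.29 and 0.53 and those among the disc genes between 0.31 and 0.83, and in IVP discs the 5 widest pairs all hold KLF4 (1.55 to 2.00).

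Over the 16 discs, the genes whose log2 CPM followed POU5F1 most closely, by Pearson's r, were TUBB3 (0.963), COL11A2 (0.957), EOMES (0.952), IGSF11 (0.949) and WNT3 (0.945). Within IVV and IVP discs COL11A2 had r of 0.957 and 0.937, and TUBB3 0.985 and 0.685. The closest to NANOG were JAKMIP2 (0.973), HHIP (0.971), APBA2 (0.960), CD8B (0.959) and HFM1 (0.955), with r of 0.982 and 0.953 for JAKMIP2 and 0.960 and 0.982 for HHIP within IVV and IVP discs. Among members, NANOG had r of 0.886 with PRDM14 (0.96 within IVV and 0.505 within IVP discs). Its r was 0.829 with VRTN (0.661 and 0.95) and 0.818 with POU5F1 (0.871 and 0.262). POU5F1 had r of 0.882 with PRDM14 (0.915 and -0.01) and 0.889 with VRTN (0.89 and 0.419). All points share the disc pieces and their makeup, so these values describe likeness of pattern across these libraries.

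Other genes of pluripotency were counted from lists written for this purpose. Of 20 formative and primed genes, 17 were matched by symbol and 14 tested between tissues, and 11 of 14 were higher in the ED (13.4% of all genes) with a median log2 difference of 1.60 against -0.09 over all genes. Examples were the paralog of SALL4 named SALL3 (log2 difference 1.97, SE 0.18) and the ETS factor ETV5 (1.89, SE 0.20). The WNT modulator SFRP2 and the forkhead factor FOXD3 had at most 6 and 4 counts in any EEM library and passed the filter through the disc. Nothing is read from their part of the count between tissues and its median. Between IVP and IVV discs edgeR called 0 of 13, and the median was -0.68 against -0.01 over all genes. An unadjusted p under 0.05 was reached by 7 of 13, and by 3262 of all 15733 genes. DESeq2 called 3 lower, and 1139 of all 15733 genes. FOXD3 was at 0.864 ± 0.636 CPM in IVP and 2.21 ± 1.495 CPM in IVV discs, with a log2 difference of -1.39 (adjusted p = 0.0910). OTX2, a primed factor of the anterior epiblast, was at 8.27 ± 4.33 CPM in IVP and 19.4 ± 12.9 CPM in IVV discs, with a log2 difference of -1.33 (adjusted p = 0.129). In EEM, SALL3 was higher in IVP (1.27, adjusted p = 0.00980) and POU3F1 was lower (-2.28, adjusted p = 0.0367), 2 of 11 tested (2.15% of all genes were higher and 1.45% lower).

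Of 15 naive genes, 14 were matched and 10 tested in the disc, and 2 of 10 were higher in IVP (1.75% of all genes) with a median of 0.12. DESeq2 called 2 higher and 1 lower (574 and 1139 of all 15733 genes). The 2 called higher by edgeR were DPPA4 (1.10, SE 0.27, adjusted p = 0.0123) and DPPA2 (1.14, SE 0.35, adjusted p = 0.0464), a pair of chromatin-bound proteins of the early embryo. DPPA2 was at 3.91 ± 1.69 CPM in IVP and 1.70 ± 0.927 CPM in IVV discs, and it was also higher in IVP EEM (1.45, adjusted p = 0.0378). KLF2, a Krüppel-like paralog of KLF4, was at 2.72 ± 2.35 CPM in IVP and 13.9 ± 9.72 CPM in IVV discs, and its log2 difference of -2.39 did not pass the test (adjusted p = 0.0525). Between tissues 3 of 11 naive genes were higher in the ED and 3 lower (13.4% and 8.49% of all genes), with STAT3 (0.98) among the higher and TFCP2L1 (-0.47), SOX15 (-0.49) and KLF2 (-0.97) among the lower. DESeq2 called 2 higher and 3 lower. FGF4 of this list had 0 counts in every EEM library and could enter only through the disc, so nothing is read from it.

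Of 16 genes of the LIN28 and let-7 axis, 15 were tested. EdgeR called 0 of 15 between IVP and IVV discs, with 2 at an unadjusted p under 0.05 (3262 of all 15733 genes). DESeq2 called 1 lower there (1139 of all genes). In EEM edgeR called 0 of 15, with 3 unadjusted (1988 of all 14718 genes), and DESeq2 called 1 higher (468 of all genes). Between tissues, 2 of 15 were higher in the ED and 2 lower, against 13.4% and 8.49% of all genes, shares near the background. The higher ones were IGF2BP2 (2.15, SE 0.25) and HMGA2 (1.66, SE 0.25), both known let-7 targets, and the lower ones were CCND2 (-0.48) and DGCR8 (-0.33).

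Markers of the other cells in the disc pieces were read beside the fall of POU5F1, PRDM14 and VRTN. Primitive streak and mesoderm genes, which arise from the epiblast, were lower in IVP discs for 7 of 12 tested (4.93% of all genes), with a median of -2.09, and their summed level was 17.7 to 69.1 CPM in IVP discs and 66.7 to 176 CPM in IVV discs. MIXL1 (-2.23, SE 0.35) and TBX6 (-2.18, SE 0.39) were examples. MESP2 and CDX1, also called lower, had at most 24 and 10 counts in any IVP disc. They passed the count filter through the IVV discs, so nothing is read from their part of the count and median. For the germ cell list 1 of 7 was lower, against the same 4.93% of all genes, namely NANOS3, a gene of primordial germ cells. NANOS3 had at most 5 counts in any IVP disc and 0.432 to 2.25 CPM in IVV discs, and it was also called lower in IVP EEM, with at most 1 count there and 0.537 to 3.89 CPM in IVV EEM. In both tissues NANOS3 passed the count filter only through the IVV libraries, so nothing is read from its calls. DDX4 of the same list was called higher in IVP EEM (1.89, adjusted p = 0.000735), so 1 of 7 went each way there (2.15% of all genes were higher and 1.45% lower). EdgeR called 0 of 12 trophoblast genes between IVP and IVV discs (0 unadjusted, 0 by DESeq2), 0 of 10 hypoblast genes (2 unadjusted, 0 by DESeq2) and 0 of 5 neural plate genes (0 unadjusted, 0 by DESeq2), with medians of 0.19, 0.04 and -0.48. The part of these cells in the differences of the members was not tested.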

How the data were processed

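Poly(A) RNA of ED and EEM was sequenced by the authors as non-stranded 100-base read pairs, filtered with SOAPnuke, aligned with STAR 2.7.0b to ARS-UCD1.3 and counted with featureCounts (Subread 2.0.3). The submitters' processing notes also list FastQC 0.11.9 and Trimmomatic. The deposited values are raw counts per Entrez gene for 30 libraries of 17 embryos. Entries of 2 counts (19289) outnumbered entries of 1 (15257), so halved counts were an alternative. Symbols came from RefSeq (ARS-UCD2.0, another assembly, so no positions are printed) and matched 31630 genes. No libraries were copies. Methylation was not analysed here.

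In R 4.3.3, edgeR 4.0.16 was run with TMM, filterByExpr (at least 10 counts) and quasi-likelihood tests, adjusted by Benjamini-Hochberg over all genes tested, at 0.05. IVP and IVV were compared in each tissue with 1 surrogate variable (sva 3.50.0), since the study used sva without a stated number. ED and EEM were compared in 26 libraries of 13 embryos with the embryo, read from the titles, as a block. ED and EEM of the same embryo deviated together from their group means (median r 0.53, 12 of 13 pairs over 0.1, IVPF13 at -0.30), against a median of -0.08 for different embryos. Without IVPF13 no member lost a call, and PRDM14 gained one in the interaction (-3.30, adjusted p = 0.0460). Ratios to POU5F1 were tested with limma 3.58.1 on log2 CPM (prior count 2). Alternatives were no or 2 surrogate variables, DESeq2 1.42.0, RLE factors, no filter, the letter that ends the titles as a term or C libraries alone (9 of 30 end in A, meaning not given), halved counts, no block, other ratio settings and each embryo left out. P-values measure the spread between embryos, which shared a pair of donor cows (IVV) or a pair of recipient cows (IVP).

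The text names all 10 members, up to 4 genes per list and comparison with the smallest p, and the 5 named genes most like POU5F1 and NANOG. SOX2, UTF1, CCND1 and single embryos were singled out after their values were seen. The members and lists were chosen with earlier results of these data known. Scripts were tested on simulated data.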

Additional observations from a re-analysis of the deposited data

Results flagged for a closer look

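In EEM of IVP embryos, IVPF13 had 0 counts of PRDM14 (0 CPM), while the other 5 libraries held 3 to 6 counts, and on log2 CPM with a prior count of 2 its gap to the nearest library exceeded Dixon's 95% critical value for 6 samples. That scale stretches the gap at 0, since on the counts themselves the gap is 3 in a range of 6. Among 39 groups of a gene examined in this way this was the 1 that stood apart, and chance gives about 1 in 20.

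VRTN was called in the test of the interaction (-2.57 on the log2 scale), with 0 to 13 counts in each EEM library behind it. It passed the count filter only through the disc, so no difference between procedures is read from this call. The call was lost in 7 of 13 fits with an embryo left out. It was also lost without the block and with only the libraries whose titles end in C.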

How the results depend on the processing

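The count of members called changed as follows. In the ED it was 3, with 2 in libraries whose titles end in C, 4 with DESeq2 and 2 to 4 with 1 embryo left out (2 without IVPF10 or VE28, 4 without IVP14, IVPF15 or VE4). In EEM it was 2 and fell to 1 with only libraries whose titles end in C, and leaving out 1 embryo at a time gave 1 to 2 (1 without VE5). For the interaction it was 1, with 0 in the fit without the embryo block, 3 with DESeq2, 0 with only libraries whose titles end in C, and 0 to 3 with 1 embryo left out. For the ratio it was 5, with 0 when SALL4 was the denominator and 3 with only libraries whose titles end in C. Without the block, 6 members were called for ED against EEM on average, 7 in IVV and 4 in IVP embryos, and in IVP embryos DESeq2 called 6.

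The sign turned for values that were not called. For IVP against IVV discs, LIN28B gave -0.11 with only libraries whose titles end in C, SALL4 gave 0.048 with 2 surrogate variables, and SALL4 ran from -0.15 to 0.15 with 1 embryo left out. For the interaction, ESRRB gave 0.16 without the block and -0.43 to 0.27 with 1 embryo left out, KLF4 gave 0.075 with only C libraries, and NANOG gave -0.056 with counts halved and -0.21 to 0.67 with 1 embryo left out. For the ratio to POU5F1, VRTN gave 0.0008 with 1 surrogate variable, and leaving out 1 embryo gave -0.20 to 0.36 for KLF4, -0.23 to 0.10 for PRDM14 and -0.14 to 0.15 for VRTN. With SALL4 as the denominator, which is another quantity and no turn of the ratio to POU5F1, KLF4 gave -1.30 and NANOG -1.09. The cause was not tested, other than that the C libraries are fewer.

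Over all genes, 1050 were called in the ED, against 1713 with DESeq2, 1733 with no filter, 592 without VE28 and 679 without VE29. In EEM 530 were called, against 1065 with no filter. For ED against EEM 3667 were called on average, 1923 without the block and 2207 in C libraries, and in IVV embryos 3714 and 2254 without the block. Without the block the lower calls fell from 1425 to 99 on average and from 1105 to 115 in IVV embryos. The higher calls went from 2242 to 1824 and from 2609 to 2139. In IVP embryos 809 genes were called, with 303 in C libraries and 470 without IVP14. For the interaction it was 174, with 435 by DESeq2, 43 in C libraries, 112 without IVP10, 110 without IVPF14, 103 without VE28 and 102 without VE29, and for the ratio 12553, with 270 for SALL4 and 4340 in C libraries.

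The fitted tissue differences of NANOG, PRDM14 and VRTN rest on few EEM counts. Another prior count was tried only for the ratios to POU5F1, so how these fits depend on it was not tested.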

Other observations

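SOX2, which with POU5F1 and NANOG defines the epiblast, is listed at 0 counts in all 30 libraries. UTF1 and CCND1 are listed at 0 in all of them too. Whether a 0 in this table marks a gene without transcripts was not tested. In the RefSeq annotation of ARS-UCD2.0 the SOX2 gene lies where LOC100849009, a long non-coding RNA gene, is also annotated. LOC100849009 was singled out after its values were seen. It held 34 to 143 counts in the 7 IVP discs (median 60), 45 to 668 in the 9 IVV discs (median 185), and 0 to 2 counts in every EEM library, with 0 counts in 5 of 6 IVP and 6 of 8 IVV libraries. By edgeR it was lower in IVP than in IVV discs, with a difference of -1.62 on the log2 scale (SE 0.42, adjusted p = 0.0202), which is close to the -1.73 of POU5F1. Whether reads of SOX2 were counted for neither gene or for LOC100849009 was not tested, since the reads are not used here.

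Within the 7 IVP discs the members did not share one order. IVP11 was the highest for POU5F1 (39.6 CPM) and ESRRB (5.21 CPM) and the lowest for PRDM14 (0.679 CPM), SALL4 (21.3 CPM) and LIN28B (3.15 CPM). It had 1.71 counts of PRDM14 per 100 of POU5F1, the lowest of the 16 discs, whereas the IVV discs had 3.71 to 10.1. IVPF15 had 7.26 counts of NANOG per 100 of POU5F1, also the lowest of the 16 discs. No test was run on these discs, which were singled out after their values were seen.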
